A study of Mus musculus with 18 samples.

Results

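The genes described here are 10 that act in the storage, fusion and recovery of synaptic vesicles: the synapsins Syn1, Syn2 and Syn3, the phosphatase synaptojanin (Synj1), the synaptotagmins Syt1, Syt4 and Syt11, and the SNARE proteins Snap25, Vamp1 and Vamp2. They were picked by name, and every array probe set annotated to one of these symbols alone was taken, which gave 31 of the 45026 probe sets tested. For each gene the probe set that was brightest on average leads, and the 10 lead probe sets stand among those of 18191 genes. One further probe set names Vamp1 together with a second gene and was not used.

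A nerve terminal keeps its transmitter in small vesicles. Synapsins coat the vesicles and hold them in a reserve near actin. To release transmitter, the vesicle SNARE (Vamp2 in most of the brain, with much Vamp1 at the neuromuscular junction of the mouse) zips up with Snap25 and syntaxin on the plasma membrane, and Syt1 fires this fusion when it binds calcium. Synaptojanin removes phosphate groups from membrane lipids so that recovered vesicles shed their clathrin coat. Tetanus toxin cuts Vamp2 and botulinum toxin type A cuts Snap25, and either cut stops release. Most of these proteins are made in the cell body and carried down the axon, but axons also hold mRNA. Smn, the protein whose lack causes spinal muscular atrophy, helps assemble the particles that splice RNA and is also found in motor axons.

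Affymetrix Mouse430_2 arrays were hybridised with RNA of mouse spinal cord motoneurons, which were enriched from embryos (E12.5) by panning for the p75 receptor and kept for 7 days in microfluidic chambers. The chambers let axons grow into a compartment of their own, to which BDNF was added at 20 ng/ml. CNTF at 5 ng/ml was on both sides of all cultures. There were 6 groups of 3 arrays: axonal RNA of cells given a lentivirus with a short hairpin RNA against Smn (Smn knockdown), of cells given the empty vector and of untreated wild-type cells, and somatodendritic RNA of the same 3 kinds. The labels give neither the strain nor the hairpin, and nothing in them says that the arrays of a group come from separate cultures, so p-values measure the spread between arrays only. Array titles of all knockdown arrays follow another numbering scheme than those of all controls. Values are log2 expression values.

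The quality of the arrays differed between compartments. Pairs of arrays within a group correlated across genes at 0.744 to 0.795 for axonal knockdown, 0.782 to 0.882 for axonal empty vector and 0.840 to 0.902 for axonal wild-type arrays, and at 0.994 or above in each somatodendritic group. Genes of other tissues, such as odorant receptors, gave a background level for each array. Between 4656 and 5506 genes exceeded it on axonal knockdown arrays, 5683 to 7447 on axonal empty vector, 6571 to 7233 on axonal wild-type and 8351 to 8861 on somatodendritic arrays. Smn1, the target of the hairpin, lay below background on all 18 arrays, so these arrays cannot show how far it was reduced (log2 difference to empty vector -0.66, SE 0.45, adjusted p = 0.486 in axonal and -0.14, SE 0.11, adjusted p = 0.412 in somatodendritic RNA). None of the 5 motoneuron markers (Chat, Slc18a3, Slc5a7, Isl1, Mnx1) exceeded background on any array, whereas all 6 markers of neurons in general did on every somatodendritic array.

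**Figure D1:**
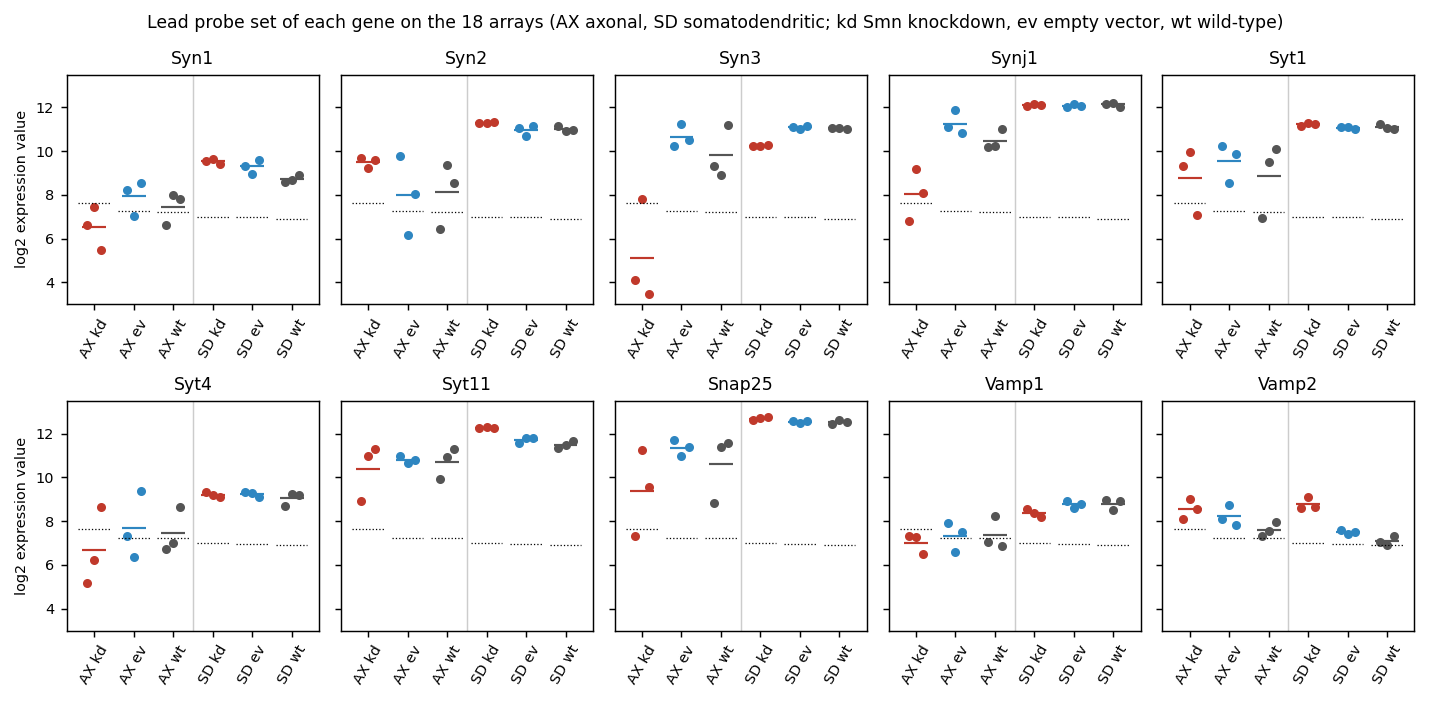
Log2 expression value (vertical axis) of the lead probe set of each of the 10 genes on all 18 arrays. Points are arrays, bars are group means and dotted lines the mean background level of the group. The 3 somatodendritic arrays of a group sit close together, while axonal arrays of a group often spread more widely, up to the 3.49 to 7.79 of Syn3 with the knockdown. For Syn1 and Vamp1, all 3 axonal knockdown arrays lie below background.

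In somatodendritic RNA the Smn knockdown arrays had more Vamp2 and Syt11 and less Syn3 and Vamp1 than the empty vector arrays, while Snap25, Syt1, Syt4, Synj1, Syn1 and Syn2 did not pass the test on their lead probe sets. With limma and Benjamini-Hochberg adjustment over all genes at a threshold of 0.05, 4 of the 10 genes were called, 2 higher and 2 lower, where 28% of all genes were called. The median log2 difference of the 10 was 0.15, and that of all genes was -0.02. Against wild-type 5 of the 10 were called, 3 higher and 2 lower, where 36% of all genes were called. Both comparisons share the knockdown arrays. In such bulk RNA a change in the number of cells of a type and a change in RNA per cell cannot be told apart.

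Vamp2, the vesicle SNARE, had the largest difference among the 10. Its lead probe set, 1420834_at, read 8.59, 9.09 and 8.64 on the knockdown arrays, 7.60, 7.43 and 7.51 on the empty vector arrays and 7.03, 6.89 and 7.32 on the wild-type arrays. All 3 knockdown arrays were above all 6 controls, and on 1 wild-type array the value was not above background. Vamp2 was 2.39-fold higher than with the empty vector (log2 difference 1.26, SE 0.14, adjusted p = 3.99e-05) and 3.23-fold higher than in wild-type (log2 difference 1.69, SE 0.14, adjusted p = 3.29e-06). The second probe set of Vamp2, 1420833_at, was below background on every array.

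Vamp1, its close relative at motor endplates, ran the other way. It read 8.54, 8.37 and 8.19 on the knockdown, 8.90, 8.60 and 8.80 on the empty vector and 8.95, 8.51 and 8.90 on the wild-type arrays. The knockdown arrays lay below the empty vector arrays but overlapped with wild-type. The log2 difference was -0.40 (SE 0.13, adjusted p = 0.041) to empty vector and -0.42 (SE 0.13, adjusted p = 0.026) to wild-type. The first call was kept under 7 of 16 other settings, among them 2 of the 6 that left out 1 array, and the second under 10 of 16. The other Vamp1 probe set, 1421862_a_at, was below background on all 9 somatodendritic arrays.

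Snap25, the plasma membrane partner of both, did not pass the test in either comparison. It read 12.61, 12.71 and 12.75 on the knockdown, 12.58, 12.499 and 12.58 on the empty vector and 12.46, 12.62 and 12.54 on the wild-type arrays. The log2 difference was 0.14 (SE 0.08, adjusted p = 0.249) to empty vector and 0.15 (adjusted p = 0.186) to wild-type. A dim second probe set, 1447763_at, was below background on these 9 arrays.

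The synapsins differed among themselves. Syn3, the synapsin best known from developing neurons, read 10.24, 10.22 and 10.27 on the knockdown, 11.12, 11.03 and 11.15 on the empty vector and 11.07, 11.08 and 11.03 on the wild-type arrays. The knockdown arrays lay below all 6 controls, and the controls overlapped with each other. Syn3 was 1.81-fold lower than with the empty vector (log2 difference -0.86, SE 0.08, adjusted p = 6.57e-06) and 1.76-fold lower than in wild-type (log2 difference -0.82, SE 0.08, adjusted p = 7.89e-06). Its second probe set, 1435310_at, read 9.02, 8.93 and 9.20, against 10.02, 9.93 and 10.13 with the empty vector (log2 difference -0.98, SE 0.10, adjusted p = 2.13e-05 over all probe sets), and the third, 1421248_at, was below background.

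Syn1, the synapsin of mature terminals, has 1 probe set. It read 9.54, 9.64 and 9.41 on the knockdown, 9.32, 8.97 and 9.60 on the empty vector and 8.59, 8.67 and 8.89 on the wild-type arrays. The knockdown arrays overlapped with empty vector and no wild-type array reached them. Syn1 was 1.76-fold higher than in wild-type (log2 difference 0.81, SE 0.14, adjusted p = 0.000747), while its log2 difference to empty vector was 0.24 (SE 0.14, adjusted p = 0.26). Empty vector minus wild-type was 0.58 (SE 0.14, adjusted p = 0.0647), and this shares the wild-type arrays with the first difference.

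The probe sets of Syn2 disagreed. The lead, 1428460_at, read 11.27, 11.27 and 11.31 on the knockdown, 11.08, 10.70 and 11.14 on the empty vector and 11.13, 10.92 and 10.96 on the wild-type arrays, which did not pass the test (log2 difference to empty vector 0.31, SE 0.11, adjusted p = 0.0625). The second, 1460230_at, read 9.80, 9.76 and 9.73, against 9.16, 8.99 and 9.46 with the empty vector, which is 0.56 higher (adjusted p = 0.00319 over all probe sets). The third, 1435511_at, read 8.27, 8.23 and 8.17, against 8.98, 8.74 and 9.03 with the empty vector, at a log2 difference of -0.69 (adjusted p = 0.000415). Thus 1 probe set was higher and another lower in the knockdown, each with arrays that did not overlap, and the same held against wild-type (0.71, adjusted p = 0.000401, and -0.70, adjusted p = 0.000276). The 3 other Syn2 probe sets were below background on all 18 arrays.

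Synj1, the lipid phosphatase, also gave readings that depended on the probe set. The lead, 1454961_at, read 12.06, 12.14 and 12.10 on the knockdown, 12.04, 12.14 and 12.06 on the empty vector and 12.17, 12.22 and 12.02 on the wild-type arrays, which overlapped (log2 difference 0.02, SE 0.08, adjusted p = 0.877 to empty vector). The second, 1436333_a_at, read 10.60, 10.53 and 10.62, against 9.82, 10.15 and 9.85 with the empty vector, and was higher by a log2 difference of 0.64 (SE 0.10, adjusted p = 0.000759). The third, 1436334_at, was higher by 0.29 (SE 0.09, adjusted p = 0.049). The remaining probe set, 1439997_at, was below background throughout.

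**Figure D2:**
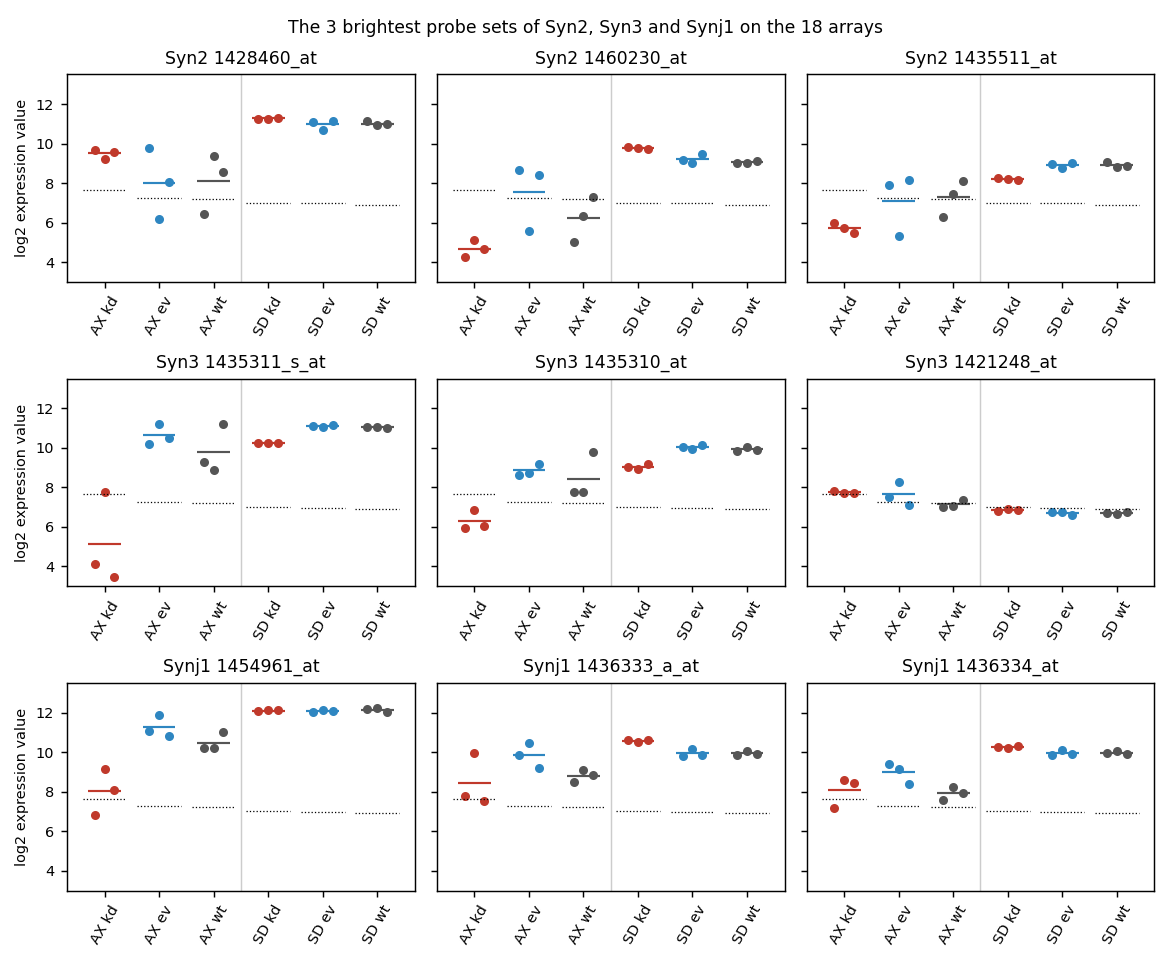
Log2 expression value of the 3 brightest probe sets of Syn2, Syn3 and Synj1 on the 18 arrays, with group means as bars and background as dotted lines. In somatodendritic RNA the second and the third Syn2 probe set moved in opposite directions with the knockdown (0.56 and -0.69), while both brighter Syn3 probe sets were lower.

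Where in the transcripts these probe sets lie was not analysed here. The RNA had been amplified in 2 rounds. For Gapdh the 3' probe set exceeded the 5' one, often read as a measure of RNA integrity, by 3.99 to 4.12 on the log2 scale in knockdown, 3.53 to 3.68 in empty vector and 3.11 to 3.61 in wild-type somatodendritic RNA. The part of RNA integrity and of amplification in these differences was not tested.

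Among the synaptotagmins only Syt11 was called on its lead probe set in the somatodendritic knockdown comparisons. Syt11, a synaptotagmin that does not bind calcium and holds back vesicle recovery, read 12.25, 12.28 and 12.24 on the knockdown, 11.56, 11.80 and 11.80 on the empty vector and 11.33, 11.48 and 11.66 on the wild-type arrays. All 3 knockdown arrays lay above all 6 controls. Syt11 was 1.46-fold higher than with the empty vector (log2 difference 0.54, SE 0.10, adjusted p = 0.00182) and 1.70-fold higher than in wild-type (log2 difference 0.77, SE 0.10, adjusted p = 0.000105). The second probe set, 1429314_at, gave 0.60 (adjusted p = 0.00123) to empty vector. There 1429315_at gave 0.36 (adjusted p = 0.0505) and 1455176_a_at 0.21 (adjusted p = 0.143), neither past the threshold. Against wild-type all 3 were higher, by 0.45 to 0.86. The dimmest Syt11 probe set, 1449264_at, was below background on every array.

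Syt1, the calcium sensor of fast release, read 11.15, 11.30 and 11.24 on the knockdown, 11.10, 11.10 and 11.03 on the empty vector and 11.24, 11.07 and 11.01 on the wild-type arrays. Although the knockdown arrays lay above the empty vector arrays, the log2 difference of 0.16 (SE 0.09, adjusted p = 0.224) did not pass the test. The other Syt1 probe sets, 1421990_at, 1431191_a_at and 1438282_at, were below background on all somatodendritic arrays. Syt4, a synaptotagmin of secretory granules, read 9.32, 9.19 and 9.09 on the knockdown, 9.34, 9.30 and 9.10 on the empty vector and 8.71, 9.24 and 9.18 on the wild-type arrays. These groups overlapped (log2 difference to empty vector -0.05, SE 0.13, adjusted p = 0.831). The second Syt4 probe set, 1415844_at, had means of 8.03 on the knockdown, 7.88 on the empty vector and 7.78 on the wild-type arrays. Its groups overlapped too.

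Non-overlap of the 3 knockdown with the 3 empty vector arrays was seen for 7 of the 10 genes, 5 above and 2 below, where 43.3% of all genes did not overlap. Between the somatodendritic controls themselves, empty vector minus wild-type, none of the 10 was called by limma, where 2% of all genes were called. At the looser threshold of an unadjusted p under 0.05 there were 3, and the share of all genes at that threshold was not counted. The differences of Syt11 and Vamp2 there were 0.23 (adjusted p = 0.284) and 0.43 (adjusted p = 0.146), and that of Syn3 was 0.04 (adjusted p = 0.841). When the axonal arrays entered the same fit and so its estimate of spread, none of the 10 was called against empty vector and 1, Vamp2, against wild-type. The shares of all genes called in that fit are not given here.

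**Figure D3:**
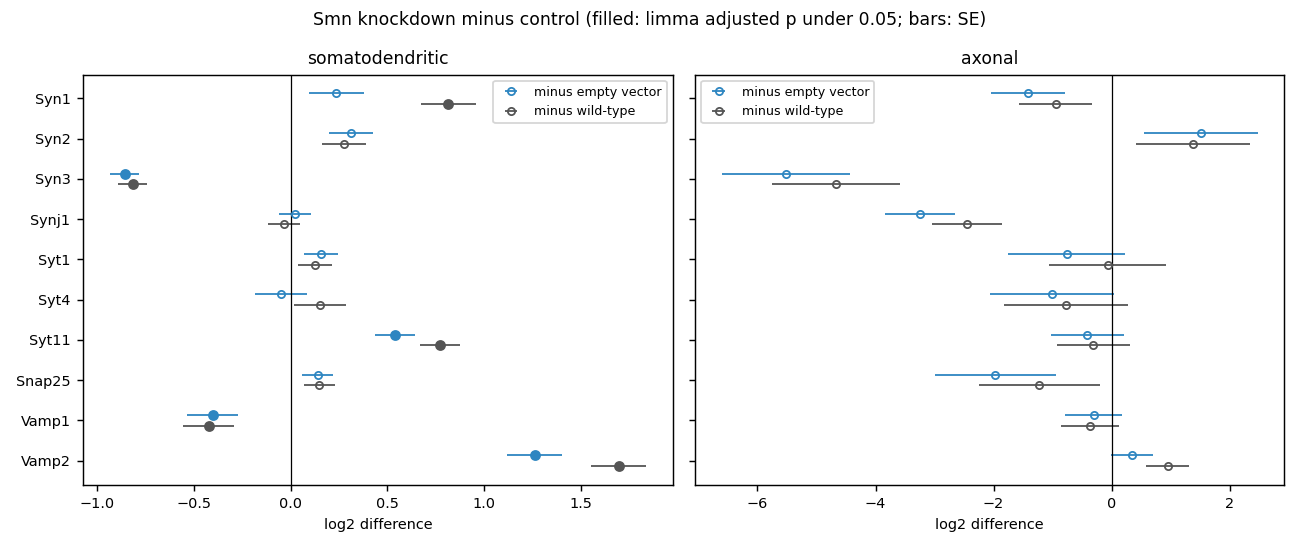
Log2 difference of Smn knockdown minus empty vector and minus wild-type for the lead probe set of each gene, with limma's standard error as bars, in somatodendritic and in axonal RNA. Filled points passed an adjusted p of 0.05. Vamp2 and Syt11 lie to the right and Syn3 to the left in somatodendritic RNA. In axonal RNA no point is filled and the bars are wider. Syn3 and Synj1 lie at -5.52 and -3.24 to empty vector, with 2 of 3 Syn3 and 1 of 3 Synj1 knockdown arrays below background.

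Markers of other cells moved in the same comparison. All 12 microglial markers were called higher in somatodendritic knockdown than empty vector arrays, where 28% of all genes were called. Of these, Aif1, Itgam, Cx3cr1 and C1qa were below background on all arrays of both groups. The median log2 difference of the 12 was 2.51. It is no exact size, since 10 of them were below background on all empty vector arrays. Their mean level was 7.98 to 8.37 on knockdown, 5.74 to 6.03 on empty vector and 7.57 to 7.70 on wild-type arrays. Of 7 astrocyte markers 5 were lower (median log2 difference -0.64), as were 4 of 6 oligodendrocyte lineage markers (median -1.19). Of 6 markers of neurons in general, 1 was higher and 1 lower. Against wild-type, where 36% of all genes were called, 8 of 12 microglial markers were higher (median 0.52). There 4 of 7 astrocyte and 4 of 6 oligodendrocyte lineage markers were lower (medians -0.68 and -1.29). The differences of Vamp2 and Syn3 to wild-type were 1.69 and -0.82, beside 1.26 and -0.86 to empty vector. The part of these cells in the results for Vamp2, Syt11, Syn3 and Vamp1 was not tested.

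For 3 genes called in somatodendritic RNA a RefSeq window before the transcription start (mouse build GRCm38.p6) was at hand, and its 250 bases are shown so that the called genes can be compared. Capitals mark matches, on either strand, to TGACGTCA (the cyclic AMP response element), CAGCACC (a part of the RE1 element bound by the repressor REST), GGGCGG (the GC box bound by Sp1) and the interferon response element (GAAA and GAAA with any 2 bases between).
Syn1, chrX:20920919-20921168, minus strand: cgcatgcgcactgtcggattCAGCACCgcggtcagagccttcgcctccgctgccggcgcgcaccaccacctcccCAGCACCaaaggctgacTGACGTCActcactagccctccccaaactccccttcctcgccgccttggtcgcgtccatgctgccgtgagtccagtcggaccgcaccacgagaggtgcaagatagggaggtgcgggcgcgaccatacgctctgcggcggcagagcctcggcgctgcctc
Syt11, chr3:88772600-88772849, minus strand: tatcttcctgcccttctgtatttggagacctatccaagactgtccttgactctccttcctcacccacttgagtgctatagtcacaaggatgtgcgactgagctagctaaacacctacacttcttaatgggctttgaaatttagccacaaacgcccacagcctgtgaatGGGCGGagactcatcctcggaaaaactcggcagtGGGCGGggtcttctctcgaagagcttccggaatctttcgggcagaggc
Vamp1, chr6:125215331-125215580, plus strand: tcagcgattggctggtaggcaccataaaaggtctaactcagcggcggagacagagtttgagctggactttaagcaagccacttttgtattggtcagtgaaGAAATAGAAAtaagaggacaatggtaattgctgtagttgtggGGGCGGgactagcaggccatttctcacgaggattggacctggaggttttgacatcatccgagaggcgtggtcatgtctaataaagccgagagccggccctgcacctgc
The Syn1 window held 1 TGACGTCA and 2 CAGCACC, that of Syt11 held 2 GGGCGG, and that of Vamp1 held 1 GGGCGG and 1 interferon response element. Of 32851 promoter windows, 1.55% held TGACGTCA, 5.73% CAGCACC, 32.7% GGGCGG and 2.98% the interferon response element. Such matches describe the letters and no binding was measured.

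In axonal RNA none of the 10 genes passed the test against empty vector or against wild-type. All 3 Smn knockdown arrays lay below all 3 empty vector arrays for 2 of the 10, Syn3 and Synj1. These 2 of 10 are close to the 21.8% of all genes that did not overlap. Against empty vector limma called 0 of the 10, where 0.176% of all genes (32) were called. An unadjusted p under 0.05, a looser threshold, was reached by 2, Syn3 and Synj1. The share of all genes at that looser threshold was not counted. The median log2 difference of the 10 was -0.89, with 8 of 10 values below 0, and that of all genes was 0.06. Against wild-type limma again called 0 of the 10, where 0.099% of all genes (18) were called. There 3 had an unadjusted p under 0.05, again without a share of all genes to set beside them. The SD within groups had a median over the 10 genes of 1.23 for axonal knockdown, 0.61 for axonal empty vector and 0.89 for axonal wild-type arrays, beside 0.08, 0.10 and 0.14 for the same 3 groups in somatodendritic RNA.

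Axonal Syn3 read 4.11, 7.79 and 3.49 on the knockdown, 10.21, 11.22 and 10.52 on the empty vector and 9.31, 8.89 and 11.21 on the wild-type arrays. All 3 knockdown arrays were below all 6 controls, and only the second of them was above background. The log2 difference was -5.52 (SE 1.09, adjusted p = 0.074) to empty vector and -4.67 (SE 1.09, adjusted p = 0.074) to wild-type. With values below background set to it, the first became -2.92. The second Syn3 probe set, 1435310_at, read 5.96, 6.84 and 6.06, against 8.64, 8.74 and 9.20 with the empty vector and 7.79, 7.77 and 9.78 in wild-type. This placed the empty vector at least 2.32-fold above the knockdown group, whose arrays were all below background (adjusted p = 0.0909). The dimmest probe set, 1421248_at, read 7.84, 7.71 and 7.72 on the knockdown and 7.54, 8.26 and 7.12 on the empty vector arrays, which overlapped.

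Axonal Synj1 read 6.80, 9.17 and 8.08 on the knockdown, 11.09, 11.88 and 10.80 on the empty vector and 10.18, 10.22 and 11.02 on the wild-type arrays. The knockdown arrays were below all 6 controls, and 2 of the 3 were above background. The log2 difference was -3.24 (SE 0.59, adjusted p = 0.0647) to empty vector and -2.46 (SE 0.59, adjusted p = 0.078) to wild-type. The second probe set of Synj1 read 7.78, 9.97 and 7.53 with the knockdown and 9.84, 10.48 and 9.19 with the empty vector, and there the groups overlapped (log2 difference -1.41, SE 0.63, adjusted p = 0.302). The remaining probe set above background, 1436334_at, read 7.17, 8.59 and 8.45 with the knockdown, 9.38, 9.17 and 8.40 with the empty vector and 7.57, 8.26 and 7.95 in wild-type. Its log2 difference was -0.91 to empty vector (SE 0.44, adjusted p = 0.339) and 0.15 to wild-type (adjusted p = 0.896), so the size seen on the lead was not seen there. Without axonal knockdown replicate 2, Synj1 was called against empty vector at -3.82 (adjusted p = 0.0313). Syn3 was then called too (adjusted p = 0.0144), but both knockdown arrays left were below background, so its value is no measured size.

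The other synapsins were more scattered. Axonal Syn1 read 6.61, 7.46 and 5.48 on the knockdown, none of them above background, 8.23, 7.03 and 8.54 on the empty vector and 6.61, 7.97 and 7.81 on the wild-type arrays (log2 difference to empty vector -1.42, SE 0.63, adjusted p = 0.278). The lead probe set of Syn2 read 9.69, 9.21 and 9.60 on the knockdown, 9.76, 6.16 and 8.05 on the empty vector and 6.44, 9.36 and 8.56 on the wild-type arrays. Its knockdown arrays were the tightest of the 3 groups and overlapped with both controls (log2 difference 1.51, SE 0.96, adjusted p = 0.453). The second Syn2 probe set read 4.26, 5.10 and 4.69 with the knockdown, all below background, against 8.64, 5.57 and 8.43 for empty vector. The empty vector arrays of this probe set spread across the background level, so it gives no direction (adjusted p = 0.152). The third Syn2 probe set, 1435511_at, ran opposite to the lead, with axonal means of 5.73 in knockdown, 7.12 in empty vector and 7.27 in wild-type. Its knockdown arrays were all below background. They lay below the wild-type arrays (6.27 to 8.09) and overlapped with the empty vector arrays (5.32 to 8.13).

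Snap25, which releases vesicles together with the Vamp proteins, read 7.32, 11.24 and 9.57 on the axonal knockdown, 11.69, 10.96 and 11.40 on the empty vector and 8.84, 11.39 and 11.56 on the wild-type arrays. Single knockdown and wild-type arrays were far below their group mates, and the log2 difference of -1.97 to empty vector (SE 1.02, adjusted p = 0.353) was within that spread. On the dim second Snap25 probe set, 1447763_at, the knockdown arrays (4.77 to 6.56) were all below background. They lay below the empty vector arrays (6.84 to 8.47) and overlapped with wild-type (6.40 to 8.27). Each control group exceeded background there on 2 of 3 arrays. Axonal Vamp2 read 8.11, 9.03 and 8.54 on the knockdown, 8.12, 8.74 and 7.80 on the empty vector and 7.34, 7.55 and 7.95 on the wild-type arrays. The knockdown arrays lay above wild-type (log2 difference 0.95, SE 0.36, adjusted p = 0.187) and overlapped with the empty vector. Axonal Vamp1 read 7.30, 7.26 and 6.51 on the knockdown, none above background, 7.90, 6.59 and 7.48 on the empty vector and 7.05, 8.24 and 6.88 on the wild-type arrays.

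On their lead probe sets the axonal synaptotagmins overlapped between all groups. Syt1 read 9.32, 9.95 and 7.06 on the knockdown, 10.24, 8.52 and 9.87 on the empty vector and 6.96, 9.49 and 10.08 on the wild-type arrays (log2 difference to empty vector -0.77, SE 0.99, adjusted p = 0.732). Syt4 read 5.17, 6.22 and 8.66 on the knockdown, 7.33, 6.35 and 9.39 on the empty vector and 6.75, 6.99 and 8.65 on the wild-type arrays. Syt11 read 8.94, 10.97 and 11.28 on the knockdown, 10.98, 10.66 and 10.78 on the empty vector and 9.92, 10.91 and 11.29 on the wild-type arrays. In each group Syt4 thus crossed the background level on some arrays and not on others, while Syt11 stayed above it on all 9. On the Syt11 probe set 1429315_at the axonal empty vector arrays (8.09 to 8.87) lay above knockdown (6.84 to 7.78) and wild-type (7.31 to 8.03). The Syt1 probe set 1431191_a_at had axonal means of 6.89 with the knockdown and 6.23 with the empty vector. It exceeded background on only 1 knockdown array. The second Syt4 probe set had axonal means of 6.21, 6.81 and 7.35 in knockdown, empty vector and wild-type, which overlapped.

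Between the axonal controls, empty vector minus wild-type, limma called 0 of the 10 and 0% of all genes, none of the 10 had an unadjusted p under 0.05, and all their adjusted p-values were 1. Mean levels of the microglial markers were 6.42 to 8.94 on the axonal knockdown, 5.74 to 6.19 on the empty vector and 6.91 to 10.1 on the wild-type arrays. Of the 6 neuronal markers, 3 to 6 exceeded background on the axonal knockdown arrays and 5 to 6 on the axonal control arrays. The part of these differences in the values of Syn3 and Synj1 was not tested.

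Axonal against somatodendritic RNA asks which of these transcripts are relatively abundant in axons. Its tests pool the spread of all 18 arrays for each gene. The median SD of the 10 genes was 1.23 on axonal and 0.08 on somatodendritic knockdown arrays. The SE with the knockdown can therefore be too small. With the knockdown, 9 of the 10 genes were lower in axonal RNA, and Vamp2 was the exception. Of all genes, 61.7% were called in this comparison and 27.7% were lower. In empty vector cultures 3 of the 10 were lower and none was higher, where 42% of all genes were called and 18.2% were lower. In wild-type cultures 4 were lower and none higher, where 29.1% were called and 14.2% were lower. The authors had normalized the compartments apart, and the median over all genes of axonal minus somatodendritic was 0.13, 0.17 and 0.17 in knockdown, empty vector and wild-type. When all 18 arrays were quantile normalized together, 5 of the 10 were lower with the knockdown, Vamp2 alone was called, as higher, with the empty vector, and none was called in wild-type. Shares of all genes after that normalization are not given here.

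The synapsins, which hold the reserve of vesicles, differed in this comparison by gene and condition. Syn2 was lower in axonal RNA in all 3 conditions, by log2 differences of -1.78 with the knockdown (SE 0.73, adjusted p = 0.0464), -2.98 with the empty vector (adjusted p = 0.00758) and -2.89 in wild-type (adjusted p = 0.0121). Syn1 was at least 3.69-fold lower with the knockdown (adjusted p = 0.000119), lower by a log2 difference of -1.36 with the empty vector (adjusted p = 0.0349) and at -1.25 in wild-type (adjusted p = 0.0603). Syn3 was lower by -5.11 with the knockdown (SE 0.82, adjusted p = 0.000136), or by -2.51 with values below background set to it, at -0.45 with the empty vector (adjusted p = 0.664) and at -1.26 in wild-type (adjusted p = 0.238). So axonal and somatodendritic Syn3 overlapped in the empty vector and wild-type cultures but not with the knockdown.

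Synj1 was lower in axonal RNA by -4.08 with the knockdown (SE 0.44, adjusted p = 5.96e-06) and by -1.66 in wild-type (adjusted p = 0.0147), and at -0.82 with the empty vector (adjusted p = 0.139). Vamp1 was at least 1.64-fold lower with the knockdown (adjusted p = 0.00597) and lower by -1.44 with the empty vector (adjusted p = 0.00908) and -1.40 in wild-type (adjusted p = 0.014). Its second probe set pointed the other way, at 1.21 with the knockdown, where the somatodendritic arrays were all below background. Vamp2 overlapped between the compartments with the knockdown, at 8.11, 9.03 and 8.54 in axonal and 8.59, 9.09 and 8.64 in somatodendritic RNA. Its log2 difference was 0.70 with the empty vector (SE 0.27, adjusted p = 0.0515) and 0.53 in wild-type (adjusted p = 0.143), neither past the threshold.

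Snap25 and the synaptotagmins were all lower in axonal RNA with the knockdown. Snap25 was lower in axonal RNA by -3.32 with the knockdown (SE 0.77, adjusted p = 0.00217), at -1.20 with the empty vector (adjusted p = 0.211) and at -1.94 in wild-type (adjusted p = 0.0691). Its second probe set pointed the other way in the controls, at 1.43 with the empty vector and 1.35 in wild-type. The somatodendritic arrays of that probe set were all below background, as were its axonal knockdown arrays. Syt1 was lower by -2.46 with the knockdown (adjusted p = 0.0111) and by -2.26 in wild-type (adjusted p = 0.0365), and at -1.54 with the empty vector (adjusted p = 0.106). Syt4 and Syt11 were called only with the knockdown, at -2.51 (adjusted p = 0.0143) and -1.86 (adjusted p = 0.00337), but whether the conditions differ needs the test of the interaction given next. Of the 6 neuronal markers 4 were lower in axonal RNA with the knockdown, 2 with the empty vector and 2 in wild-type.

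**Figure D4:**
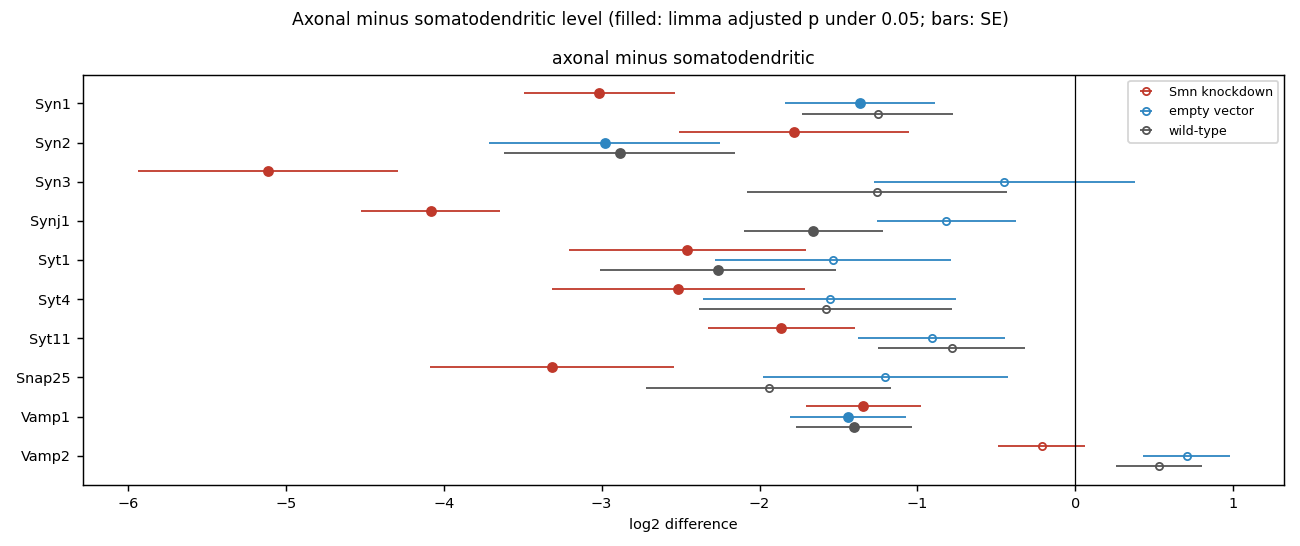
Log2 difference of axonal minus somatodendritic RNA for the lead probe set of each gene in Smn knockdown, empty vector and wild-type cultures, with limma's standard error as bars and filled points for an adjusted p under 0.05. All genes but Vamp2 lie to the left of 0 in every condition. The point of Syn3 with the knockdown (-5.11) rests on 2 of 3 axonal arrays below background and is -2.51 with such values set to background, beside -3.77 for Synj1 and -3.17 for Snap25.

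Whether the knockdown acted differently in the compartments was tested as an interaction, the axonal minus the somatodendritic log2 difference of knockdown minus empty vector. It was called for 2 of the 10, Synj1 and Syn3, both more negative in axonal RNA, where 6.77% of all genes were called and 2.56% in that direction. For Synj1 the term was -3.26 (SE 0.62, adjusted p = 0.0101), made of -3.24 in axonal and 0.02 in somatodendritic RNA. For Syn3 it was -4.67 (SE 1.17, adjusted p = 0.0304), made of -5.52 and -0.86. The Synj1 call was kept under 22 of 23 other settings and lost with the second probe set (-2.05, adjusted p = 0.0861). The Syn3 call was kept under 11 of 23 and was lost, for instance, without axonal knockdown replicate 1 (-4.16, adjusted p = 0.0602) and with the second probe set (-1.59, adjusted p = 0.119). With values below background set to it, the terms were -2.95 for Synj1 and -2.06 for Syn3. For Syt4, Syt11, Syt1 and Snap25 the terms were -0.96, -0.95, -0.92 and -2.11, with adjusted p-values of 0.278 to 0.682.

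Other genes of release and recovery were counted from 5 lists. In somatodendritic knockdown minus empty vector, where 28% of all genes were called, 3 of 9 vesicle membrane proteins were higher and none lower, with Sv2a at 0.90 (SE 0.15, adjusted p = 0.000584) and synaptophysin (Syp) at 0.71 (adjusted p = 0.0033), and with Svop (0.47) below background in both groups. Sv2a and Syp were also higher in the empty vector than in wild-type arrays, by 0.82 (adjusted p = 0.0113) and 0.66 (adjusted p = 0.0414). Of 7 genes of vesicle endocytosis 2 were lower and none higher: Dnm3, a dynamin that pinches off membrane, at -1.64 (SE 0.10, adjusted p = 1.8e-07), and amphiphysin (Amph) at -0.91 (adjusted p = 0.00013), while Dnm1 was at 0.14 (adjusted p = 0.388). These 2 of 7 are close to the share of all genes called. The lead probe set of Synj1, which also serves the recovery of vesicles, did not pass the test, while its other probe sets above background were higher.

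Among 10 other SNAREs 2 were higher and 3 lower, beside the same 28% of all genes. Stx1a, the syntaxin partner of Snap25 and Vamp2, was higher at 0.54 (SE 0.10, adjusted p = 0.0014), Vamp7, a vesicle SNARE of growing neurites, was lower at -0.75 (adjusted p = 0.000204), and Vamp8 (0.95, adjusted p = 2.87e-05) was below background in both groups. Among 11 regulators of SNAREs 1 was higher and 3 were lower, with Napg, which helps take used SNARE complexes apart, at 0.55 (adjusted p = 0.000476), Doc2b at -0.59 (adjusted p = 0.00814) and Doc2a at least 1.7-fold lower (adjusted p = 8.28e-05). Doc2a and Doc2b are calcium-binding relatives of the synaptotagmins. Among 13 other synaptotagmins 1 was higher, Syt13 at 0.33 (adjusted p = 0.0072), and 1 lower, Syt17 at -0.64 (adjusted p = 0.0125), with Syt16 at -0.29 (adjusted p = 0.0807). Over these 5 lists the median log2 differences to empty vector ran from -0.05 to 0.06, beside 0.15 for the 10 genes. Against wild-type, where 36% of all genes were called, the counts of higher and lower genes were 1 and 3 for the other synaptotagmins, 2 and 3 for the other SNAREs, 3 and 3 for the regulators, 3 and 1 for the vesicle membrane proteins and 1 and 2 for endocytosis.

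**Figure D5:**
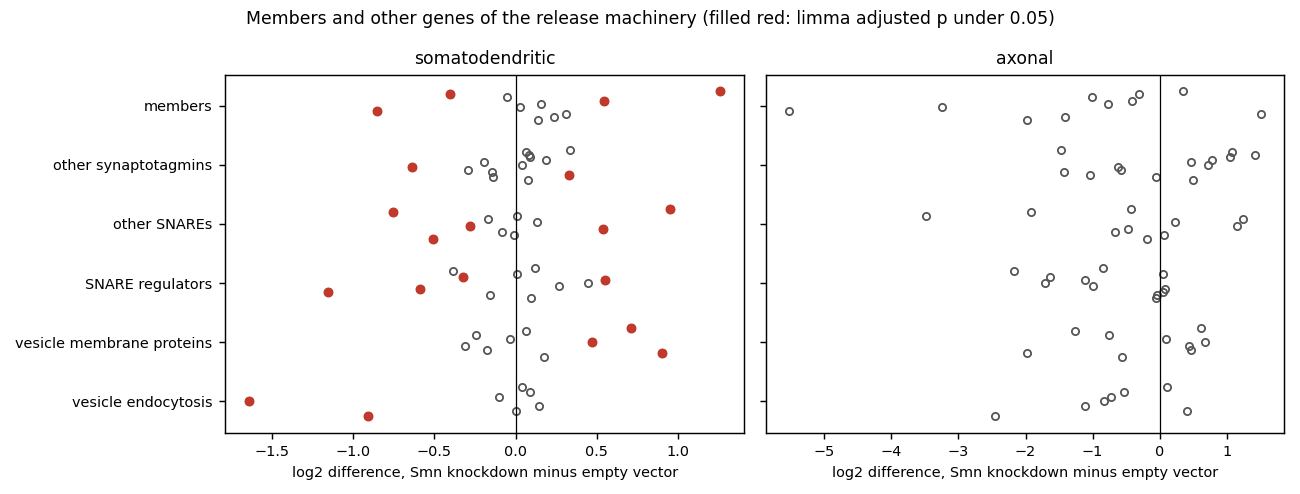
Log2 difference of Smn knockdown minus empty vector for the 10 genes and the 5 lists of other release genes, in somatodendritic and axonal RNA. Each point is the lead probe set of 1 gene, and filled red points passed an adjusted p of 0.05. In somatodendritic RNA each list holds called genes, with all 3 called vesicle membrane proteins to the right and both called endocytosis genes to the left, and in axonal RNA none is called.

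In axonal RNA limma called no gene of the 5 lists in either knockdown comparison. The lowest adjusted p-values against empty vector were those of Syt6 (1.05, adjusted p = 0.114), Syt8 (1.08, adjusted p = 0.123), Napg (-1.12, adjusted p = 0.127) and Amph (-2.46, adjusted p = 0.138). The interaction was called for Napg (-1.66, SE 0.30, adjusted p = 0.00848), Napb (-2.15, adjusted p = 0.0476) and Sv2a (-2.88, adjusted p = 0.0433), which were more negative in axonal RNA like Synj1 and Syn3, and for Syt6 (0.96, adjusted p = 0.0398) and Syt8 (1.02, adjusted p = 0.0448), which were more positive. Napb and Sv2a exceeded background on only 1 of 3 axonal knockdown arrays. In somatodendritic RNA Syt8 was below background on all arrays of both groups. Syt6 exceeded it there on 1 knockdown array and on no empty vector array. On axonal empty vector arrays Syt6 exceeded it on 1 of 3 and Syt8 on 2 of 3. The sizes of these 4 terms are therefore not exact.

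In axonal minus somatodendritic RNA with the knockdown, where 61.7% of all genes were called and 27.7% were lower, 5 of 9 vesicle membrane proteins were lower and none higher, and Synpr, a relative of synaptophysin, was at least 13.4-fold lower (adjusted p = 0.000143). Of 11 SNARE regulators 5 were lower, among them Nsf, the enzyme that takes SNARE complexes apart, at -3.30 (adjusted p = 0.000255), and none higher. The other SNAREs had 1 higher and 5 lower, the endocytosis genes 1 higher and 3 lower, and the other synaptotagmins 5 higher and 5 lower. With the empty vector, where 42% of all genes were called and 18.2% were lower, the counts of higher and lower genes were 0 and 3 for vesicle membrane proteins, 1 and 4 for regulators, 0 and 4 for other SNAREs, 1 and 2 for endocytosis and 1 and 4 for other synaptotagmins. In wild-type, where 29.1% were called and 14.2% were lower, they were 0 and 3, 0 and 3, 0 and 2, 1 and 2 and 1 and 3 for the lists in this order. Nsf was lower in each of the 3 conditions, by -1.99 with the empty vector (adjusted p = 0.0164) and by -2.10 in wild-type (adjusted p = 0.0172).

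The genes whose lead probe sets followed 1 gene of each family most closely were found by Pearson's r over the 9 arrays of a compartment, as a description. These arrays share 3 groups, so a common difference between groups alone can give a high r. Over somatodendritic arrays, among 8636 genes, Vamp2 was closest to Hsdl1 (r = 0.994), Wbp2 (0.993) and Pisd (0.993), and Syn1 to Arhgap23 (0.971), Arf4 (0.967) and Pip5k1c (0.966). Snap25 was closest to Ube2v2 (0.956), Ascc2 (0.944) and Amy1 (0.943), and Syt1 to Gsg1l (0.918), Srp9 (0.906) and Zfp330 (0.899). Over axonal arrays, among 6247 genes, Syt1 was closest to Wsb2 (0.966), the syntaxin Stx1a (0.964) and Ngef (0.961), and Snap25 to Stradb (0.977), Fbxw7 (0.960) and Nrn1 (0.946). Syn1 was closest to Cipc (0.956), Foxk2 (0.954) and Hars (0.951), and Vamp2 to Krt42 (0.964), Ift46 (0.957) and Aplp2 (0.944). No gene was among the nearest 3 of the same gene in both compartments.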

How the data were processed

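The deposited values are log2 expression values of 45101 probe sets on 18 arrays, made by the authors with software not given in the sources used here. Sorted values differed by at most 0.0048 among somatodendritic and 0.0125 among axonal arrays, so the authors had brought the arrays of each compartment to 1 distribution. Control probe sets (64) and probe sets with missing values (11) were left out. Genes were named from the platform annotation. The probe set of highest mean stood for its gene.

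Tests used lmFit and eBayes of limma 3.58.1 (R 4.3.3), with Benjamini-Hochberg adjustment over 18191 genes and a threshold of 0.05. Comparisons within a compartment used its 9 arrays, those across compartments and the interaction all 18. The latter pool the spread of both compartments for each gene. Their SE can therefore be too small where the axonal knockdown arrays enter. Other probe sets were adjusted over all 45026. The number of arrays, 3 per group, limits the precision. The background level was the 95th percentile of 173 probe sets of genes of other tissues. A group was not above background if no array exceeded it, and its fold is then a bound ("at least"), the brighter mean against that level or the probe's own value if higher. Scripts were tested on simulated data. The genes, lists and tests were chosen with earlier results of these data known. All 10 genes are named, and of each list up to 3 genes with the lowest p. No pairing by equal numbers in array titles was seen: of 30 correlations of deviations 1 exceeded 0.1 (range -0.193 to 0.227). These cannot decide whether cultures were matched, since knockdown titles follow another numbering scheme and axonal arrays scatter widely. Promoter windows are RefSeq's (GRCm38.p6), present for 6 of the 10 genes. Alternatives are given at the end.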

Additional observations from a re-analysis of the deposited data

Results flagged for a closer look

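The Smn knockdown effect differed between axonal and somatodendritic RNA, by the test of the interaction, for 2 of the 10 genes, where 6.77% of all genes were called and 2.56% in the same direction. Neither gene passed the test in axonal RNA alone (adjusted p = 0.0647 for Synj1 and 0.074 for Syn3). For Synj1 the difference of differences was -3.26 on the log2 scale (SE 0.62, limma adjusted p = 0.0101), with -3.24 in axonal and 0.02 in somatodendritic RNA, and all 3 axonal knockdown arrays lay below the 3 axonal empty vector arrays. For Syn3 it was -4.67 (SE 1.17, adjusted p = 0.0304), with -5.52 in axonal and -0.86 in somatodendritic RNA, and the axonal knockdown arrays were again below those with the empty vector. Of the axonal knockdown arrays, 2 of 3 were above background for Synj1 and 1 of 3 for Syn3. With values below background set to it, the terms were -2.95 for Synj1 and -2.06 for Syn3. The Synj1 call was kept under 22 of 23 other settings and the Syn3 call under 11 of 23. Both calls were lost with the second probe set (-2.05, adjusted p = 0.0861 for Synj1 and -1.59, adjusted p = 0.119 for Syn3). All settings that kept the Synj1 call used its lead probe set.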

How the results depend on the processing

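With 1 fit to all 18 arrays, the number of the 10 genes called was 0 instead of 4 for somatodendritic knockdown minus empty vector, 1 instead of 5 for somatodendritic knockdown minus wild-type, and 3 instead of 0 for each axonal knockdown comparison. With array weights it was 1 instead of 0 for somatodendritic empty vector minus wild-type (Syn1), 1 instead of 0 for axonal knockdown minus wild-type (Synj1) and 7 instead of 4 for axonal minus somatodendritic in wild-type. With all arrays quantile normalized together, axonal minus somatodendritic gave 5 instead of 9 with the knockdown, 1 instead of 3 with the empty vector and 0 instead of 4 in wild-type. With values below background set to it, an alternative chosen after seeing the data, the counts were 3 for axonal knockdown minus wild-type and, for axonal minus somatodendritic, 6 with the empty vector and 8 in wild-type. The interaction gave 1 instead of 2 with the second probe sets, without _x_at and _s_at probe sets, with only the arrays compared, and without the 2 axonal arrays least like the somatodendritic controls. The second probe sets gave 5 instead of 3 for axonal minus somatodendritic with the empty vector. The cause of these changes was not tested. Counts in this section are given without the share of all genes called under the same setting. They therefore cannot show whether a change was particular to the 10 genes.

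Leaving out 1 array at a time gave 3 to 4 called genes for somatodendritic knockdown minus empty vector, 4 to 5 for knockdown minus wild-type and 0 to 2 for empty vector minus wild-type (2, Syn1 and Vamp2, without wild-type replicate 3, and 1, Syn1, without empty vector replicate 2). It gave 0 to 2, 0 to 1 and 0 to 0 for the same comparisons in axonal RNA, in both knockdown comparisons with the higher count without axonal knockdown replicate 2. For axonal minus somatodendritic it gave 7 to 9 (knockdown), 2 to 5 (empty vector) and 2 to 4 (wild-type), and for the interaction 1 to 4, the 4 without axonal knockdown replicate 2.

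With the second probe set in place of the first, differences called on either probe set had opposite signs for Synj1 in somatodendritic knockdown minus wild-type (0.63), for Vamp1 in axonal minus somatodendritic (1.21 with the knockdown, 0.47 with the empty vector, 0.31 in wild-type), for Vamp2 (0.49 with the knockdown), Snap25 (1.43 with the empty vector) and the interaction of Syn2 (-3.42). Of 1780 values of single genes under the alternatives, 1559 kept direction and side of the threshold, 73 lost the threshold, 64 gained it, 77 of values not called moved or changed sign, and these 7 were opposite. A replicate block by the number in the array title, for which no pairing was seen, called 0 of the 10 genes in axonal knockdown minus empty vector, knockdown minus wild-type and empty vector minus wild-type, 0 in somatodendritic empty vector minus wild-type, 4 in axonal minus somatodendritic with the empty vector and 3 in wild-type. No replicate block was fitted for the other comparisons. The somatodendritic knockdown arrays enter each of them and share no title number with any other group. Signal over background limits what axonal arrays can show, since 3 of the 10 lead probe sets were above it on all 3 axonal knockdown arrays, beside 6 with the empty vector and 5 in wild-type.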
